A study of Mus musculus with 6 samples.

Results

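The 7 keratin genes described here were Krt8, Krt18, Krt19, Krt20, Krt7, Krt23 and Krt80, studied as regions of open chromatin in mouse intestinal organoids, cultures of intestinal epithelium grown from crypts in Matrigel. The peaks counted for them, regions of accessible DNA, were those whose centre lay within 50 kb of an end of one of these genes and nearer to it than to any other protein-coding gene. This rule gave 68 of the 90823 peaks of the study, at 7 of the 16853 genes that had any. ATAC-seq, which reads out open DNA by where a transposase can cut and tag it, was run on sorted intestinal epithelial cells from organoids kept for 3 days with AA at 25 µM, with PGE2 at 50 nM or with vehicle. AA is arachidonic acid, a polyunsaturated fatty acid that cells turn into prostaglandins, and PGE2 is such a prostaglandin; the design text names a dimethyl form of it, so the compound is given as the samples are labelled. Each group had 2 libraries, and since nothing states that these were separate cultures, the p-values measure only the spread between libraries, which may be technical. The medium of every group, vehicle included, held EGF, Noggin, R-spondin, CHIR-99021 and Y-27632. The strain, age and genotype of the mice were not stated.

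Keratins are the intermediate filament proteins of epithelial cells. A filament is built from pairs of a type I and a type II keratin, so each cell needs partners of both types. In simple epithelia such as the gut lining, Krt8 (type II) pairs mainly with Krt18, Krt19 and Krt20 (type I). Krt20 marks differentiated cells of the villus, while Krt7 is a type II keratin best known from ducts and bladder. Krt23 (type I) and Krt80 (type II) are less studied epithelial keratins. The type I genes sit together on chromosome 11 and the type II genes on chromosome 15, where Krt18 is the type I gene that lies beside Krt8.

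The start sites of 4 of these genes are shown because the data bear on them in different ways: the start-site peak of Krt8 was lower with PGE2, that of Krt7 was higher, that of Krt18 was called in neither direction, and Krt20 had no peak there. Each sequence is the 250 bases before the start site from RefSeq, build GRCm38.p6, read 5′ to 3′ on the strand of the gene. Capitals mark a GC box (GGGCGG on either strand) or a TATA box (TATAAA), 2 of the 5 short motifs searched on both strands.
Krt8, chr15:102004343-102004592, minus strand: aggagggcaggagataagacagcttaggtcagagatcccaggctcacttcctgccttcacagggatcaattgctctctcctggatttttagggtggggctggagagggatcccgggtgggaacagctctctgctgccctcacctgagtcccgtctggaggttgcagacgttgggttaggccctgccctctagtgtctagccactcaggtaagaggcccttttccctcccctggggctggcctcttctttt
Krt18, chr15:102027966-102028215, plus strand: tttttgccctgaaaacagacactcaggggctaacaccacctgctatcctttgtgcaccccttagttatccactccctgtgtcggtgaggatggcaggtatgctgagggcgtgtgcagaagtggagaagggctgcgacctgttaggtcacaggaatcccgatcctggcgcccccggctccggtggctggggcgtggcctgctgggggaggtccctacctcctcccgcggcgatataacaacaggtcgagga
Krt7, chr15:101412153-101412402, plus strand: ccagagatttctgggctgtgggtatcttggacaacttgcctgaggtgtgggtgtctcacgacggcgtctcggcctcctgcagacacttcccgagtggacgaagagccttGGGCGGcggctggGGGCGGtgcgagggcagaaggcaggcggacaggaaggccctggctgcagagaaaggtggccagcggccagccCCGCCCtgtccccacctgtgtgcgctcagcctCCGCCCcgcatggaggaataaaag
Krt20, chr11:99438154-99438403, minus strand: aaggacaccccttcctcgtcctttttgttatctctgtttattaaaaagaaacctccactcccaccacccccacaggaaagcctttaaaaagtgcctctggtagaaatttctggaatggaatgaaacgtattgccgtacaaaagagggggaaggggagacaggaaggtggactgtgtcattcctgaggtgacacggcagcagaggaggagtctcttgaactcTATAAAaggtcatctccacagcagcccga

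The window of Krt7 was the richest in G and C of the 5 that RefSeq gave (66.0%, with 16 CpG dinucleotides) and held 4 GC boxes, a motif found in 32.7% of 32851 mouse windows of the same length. The windows of Krt18 (60.4% GC, 12 CpG) and Krt8 (58.0% GC, 3 CpG) held neither capitalised motif. The window of Krt20 was 48.0% GC with 5 CpG and held TATAAA with its first base at position -29, counted from the start site; 12.4% of all windows held that motif. Krt23 (52.8% GC, 5 CpG) held neither. Over all windows the median was 52.4% GC and 6 CpG. The letters TGANTCA (AP-1, in 6.75% of all windows), TGACGTCA (CRE, in 1.55%) and CAAAGTCCA (HNF4, in 0.384%) were in none of the 5 windows, which says only that these letters are not in them. RefSeq windows of Krt19 and Krt80 were not used.

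Libraries held 12374232 to 14236985 counts over all peaks. Values are given as CPM, counts relative to the library's total after TMM scaling, which sets the libraries to a common level through the bulk of the peaks. All 68 keratin peaks had enough counts to be tested. They were 183 to 1572 bp long, with a median of 509.5 bp, and the farthest centre lay 20945 bp from its gene. Of the 68, 6 had their centre within 1 kb of a gene end, 12 lay inside a gene and 50 outside. In vehicle libraries their mean level ran between 1.49 and 158 CPM, with a median of 17.2 CPM. The epithelial markers Epcam, Cdh1, Vil1, Cdx1 and Cdx2 all had peaks, with summed levels of 1470 to 1483 CPM with AA, 1428 to 1429 CPM with PGE2 and 1416 to 1434 CPM with vehicle. All endothelial, mesothelial and basal squamous markers read had peaks too, so having peaks does not check the sorted cell type. In such bulk libraries, fewer cells of a type and less open chromatin per cell cannot be told apart.

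With AA, 13 of the 68 keratin peaks were higher than with vehicle and 6 were lower at an adjusted p under 0.05 (edgeR's quasi-likelihood test with Benjamini-Hochberg adjustment over 89347 peaks). That is 27.9% of the keratin peaks, beside 30.5% of all peaks tested (16.7% higher and 13.8% lower), so the share was close to the background. With PGE2, 13 were higher and 11 lower, 35.3% of the keratin peaks beside 24.9% of all peaks (14.3% higher and 10.6% lower). AA against PGE2, 7 were higher and 1 was lower, 11.8% beside 9.95% of all peaks (5.06% higher and 4.88% lower). The median log2 change of the 68 was 0.00 with AA, -0.07 with PGE2 and 0.09 for AA against PGE2, next to medians of -0.02, -0.00 and -0.01 over all peaks. The contrasts of AA and of PGE2 share their vehicle libraries. A change of at least 2-fold was seen at 3 keratin peaks with AA and at 2 with PGE2, and at 0 for AA against PGE2.

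These counts depended on single libraries, on the scaling and on the test, as did those over all peaks. Fewer of all peaks were also called in each fit named here that left out a library. With AA, 12 peaks were called without AA replicate 1 and 12 without vehicle replicate 1. With PGE2, 14 were called without PGE2 replicate 2, 10 without vehicle replicate 1 and 13 without vehicle replicate 2. For AA against PGE2, 1 was called without AA replicate 1, 1 without AA replicate 2 and 4 without vehicle replicate 2. Scaled by library totals in place of TMM, 11 were higher and 8 lower with AA, and 6 were higher and 14 lower with PGE2. With DESeq2, another count test, in place of edgeR, 4 were called with PGE2, a share below that of all peaks. In the edgeR fit without vehicle replicate 1, the share called with PGE2 was also below that of all peaks. It was near that of all peaks without PGE2 replicate 2, and above it without vehicle replicate 2.

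**Figure D1:**
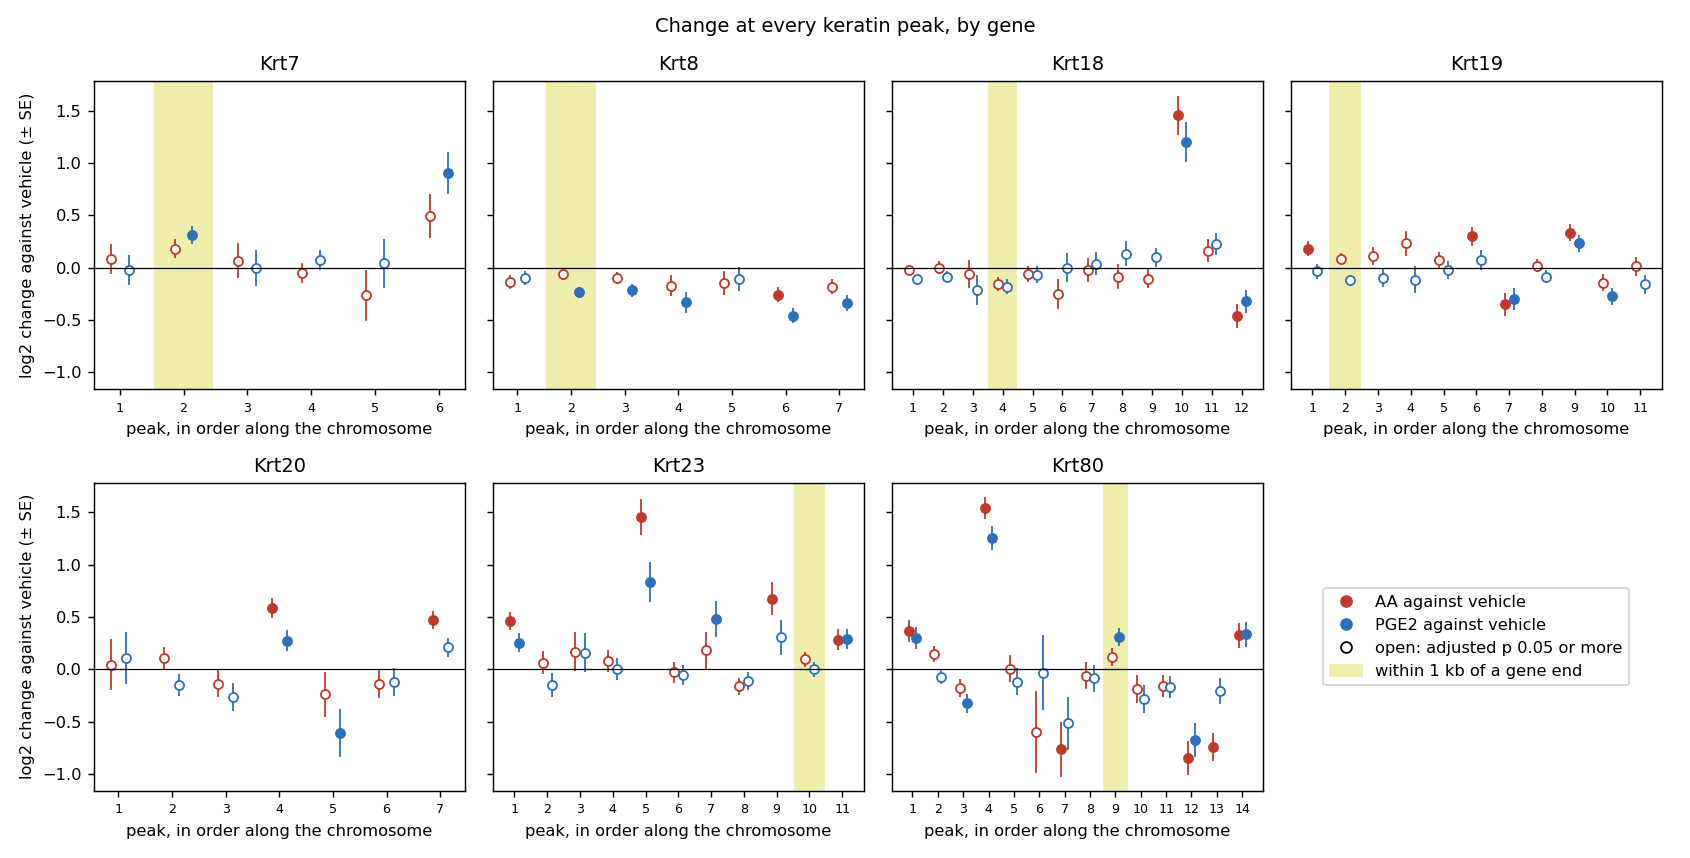
Log2 change against vehicle at all 68 keratin peaks, with AA (red) and PGE2 (blue), peaks in order along the chromosome within each gene. Whiskers are standard errors of the fit, filled points had an adjusted p under 0.05, and shading marks peaks within 1 kb of a gene end. All 7 peaks of Krt8 lie below 0 under both treatments, and the highest points are single peaks of Krt18, Krt23 and Krt80.

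Summed over their peaks, the genes differed in level and in direction. Counts summed per gene are given as CPM of the counts assigned to genes. Per kb of peak, the vehicle level was highest at Krt8, at 99.2 ± 1.18 CPM (SD, n = 2, as for all means below). Krt19 followed at 61.4 ± 0.25 and Krt18 at 60.0 ± 0.50 CPM per kb. Krt23 had 34.1 ± 0.32, Krt80 27.4 ± 0.75, Krt20 24.1 ± 1.04 and Krt7 21.0 ± 0.82 CPM per kb. Each neighbouring pair in this order was apart by more than the sum of its SDs. With PGE2, Krt19 (55.7 ± 0.41 CPM per kb) and Krt18 (54.9 ± 0.54 CPM per kb) were not, and neither were Krt20 and Krt7. With AA, Krt80 and Krt20 were not.

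With AA, the sums of Krt20 and Krt23 were higher and that of Krt8 was lower than with vehicle, 3 of 7 genes beside 32.2% of 16788 genes. When peaks were assigned within 10 kb, the calls of Krt20 and Krt23 were lost and 0 genes were called higher and 2, Krt8 and Krt18, lower with AA. With PGE2, the sums of Krt8, Krt18 and Krt19 were lower, 3 of 7 beside 38.5% of genes (17.7% lower). AA against PGE2, Krt8, Krt19, Krt20 and Krt23 were higher, 4 of 7 beside 17.6% (8.67% higher). Without AA replicate 1 the calls of Krt20 and Krt23 were lost, and far fewer of all genes were called as well.

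**Figure D2:**
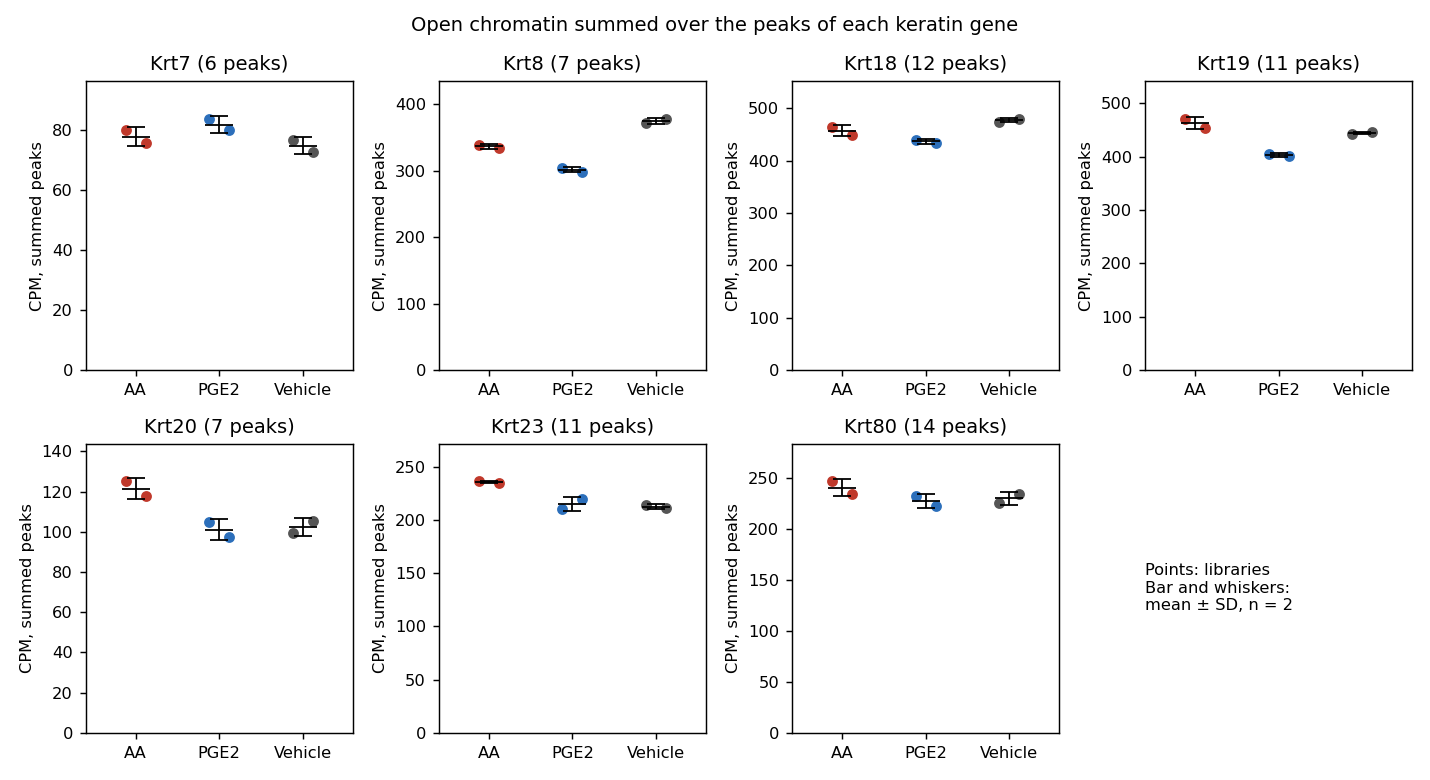
CPM summed over the peaks of each keratin gene, with AA, PGE2 and vehicle; points are libraries, bars and whiskers the mean ± SD (n = 2), and each axis starts at 0. Krt8 is at 299 to 305 CPM with PGE2, below both other groups, while Krt20 is at 118 to 125 CPM with AA, above both.

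Krt8, the type II partner shared by the gut's type I keratins, was lower in the sum of its peaks under both treatments. The sum over its 7 peaks was 339 and 334 CPM with AA, 305 and 299 CPM with PGE2 and 372 and 378 CPM with vehicle. The 3 groups did not overlap, with PGE2 lowest and vehicle highest. On the log2 scale it changed by -0.16 with AA (SE 0.03, adjusted p = 3.46e-04) and -0.31 with PGE2 (SE 0.03, adjusted p = 5.35e-07). For AA against PGE2 this was 0.16 (SE 0.03, adjusted p = 0.00133). All 7 peaks had negative values with AA, of which 1 passed the threshold, and all 7 had negative values with PGE2, of which 5 passed. Of all peaks, 13.8% were called lower with AA and 10.6% with PGE2, so the count with AA was near the background. The 7 peaks were read in the same libraries and are not replicates.

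The Krt8 peak with the smallest p against vehicle lay 4996 bp before its start site, outside the gene (chr15:102009111-102009565, mm10). It held 36.6 and 37.5 CPM with AA, 33.5 and 31.1 CPM with PGE2 and 44.5 and 44.2 CPM with vehicle. Both treatments stayed under both vehicle libraries. Its log2 change was -0.46 with PGE2 (SE 0.07, adjusted p = 4.96e-06). With AA it was -0.26 (SE 0.07, adjusted p = 0.00446), with an adjusted p of 0.0656 without AA replicate 1, 0.0559 without vehicle replicate 1 and 0.217 under DESeq2, another count test. AA against PGE2 was not called (adjusted p = 0.0847; 0.0476 without PGE2 replicate 1).

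The peak over the Krt8 start site (chr15:102003736-102004976), which covers the whole sequence printed above, had 80.6 and 80.4 CPM with AA, 71.4 and 71.1 CPM with PGE2 and 83.7 and 84.3 CPM with vehicle. The PGE2 libraries were the lowest and the AA libraries lay just under vehicle. The log2 change was -0.24 with PGE2 (SE 0.05, adjusted p = 9.04e-04; 0.113 under DESeq2), and -0.06 with AA (SE 0.05, adjusted p = 0.411). When gene-end and other peaks were scaled apart, it was -0.41 with PGE2 (adjusted p = 2.40e-08), -0.12 with AA (adjusted p = 0.0805) and 0.29 for AA against PGE2 (adjusted p = 1.95e-04). In the common scaling the change for AA against PGE2 was 0.17 (SE 0.05, adjusted p = 0.0325); this call was lost under DESeq2 (adjusted p = 0.374) and without AA replicate 1 (adjusted p = 0.134), AA replicate 2 (0.133), PGE2 replicate 2 (0.0784) or vehicle replicate 2 (0.0630). A peak past the other end of Krt8, outside the set because Krt78 is nearer, had log2 changes of -0.12 with AA (adjusted p = 0.0381) and -0.28 with PGE2 (adjusted p = 3.33e-06). A pseudogene, Krt8-ps, is annotated on chromosome 7, and how reads that it may share with the Krt8 gene body were placed is not stated. This makes the value of the peak inside the gene uncertain, and also that of the start-site peak, which reaches into the gene.

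Krt18, the main type I partner of Krt8 in simple epithelia, had 465 and 450 CPM over its 12 peaks with AA, 440 and 434 CPM with PGE2 and 475 and 480 CPM with vehicle. The PGE2 libraries were the lowest, and no group overlapped another. The sum changed by -0.13 on the log2 scale with PGE2 (SE 0.03, adjusted p = 0.00113) and -0.06 with AA (SE 0.03, adjusted p = 0.0841). With AA it was called lower when peaks were assigned within 10 kb (-0.14, adjusted p = 0.0365) and with library totals (-0.08, adjusted p = 0.0340), and with PGE2 the 10 kb assignment gave -0.21 (adjusted p = 0.00188). Its highest peak, which was also the highest of all 68, lay 11454 bp before the start site (chr15:102016125-102017399). It held 160 and 151 CPM with AA, 144 and 147 CPM with PGE2 and 157 and 158 CPM with vehicle, and passed the test in no comparison (adjusted p = 0.773 with AA, 0.0654 with PGE2). Scaled by library totals, its log2 change with PGE2 was -0.16 (adjusted p = 0.00592), and it also passed with only PGE2 and vehicle in the fit (-0.12, adjusted p = 0.0347). The start-site peak of Krt18 (chr15:102027977-102029073) had 41.6 and 39.7 CPM with AA, 39.2 and 40.8 CPM with PGE2 and 43.9 and 46.8 CPM with vehicle. Both treatments lay under vehicle, with log2 changes of -0.16 with AA (SE 0.07, adjusted p = 0.0831) and -0.18 with PGE2 (SE 0.07, adjusted p = 0.0518) that did not pass the test. They passed when gene-end and other peaks were scaled apart (-0.21 and -0.36, adjusted p = 0.0131 and 6.28e-05) and with library totals (-0.19 and -0.23, adjusted p = 0.0298 and 0.0106), and that with PGE2 also passed with DESeq2 size factors (adjusted p = 0.0472) and with only PGE2 and vehicle in the fit (0.0419).

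A single small peak 13789.5 bp past the far end of Krt18 (chr15:102045656-102045975) was higher under both treatments. It held 7.11 and 8.08 CPM with AA, 6.56 and 6.10 CPM with PGE2 and 2.91 and 2.59 CPM with vehicle. Every treated library was above every vehicle library. On the log2 scale the change was 1.46 with AA (SE 0.18, adjusted p = 2.72e-08) and 1.20 with PGE2 (SE 0.19, adjusted p = 5.00e-06), and 0.26 for AA against PGE2 (SE 0.15, adjusted p = 0.317). Its neighbour at 12983 bp, the Krt18 peak with the smallest p for AA against PGE2, had 20.8 and 24.2 CPM with AA, 25.6 and 26.1 CPM with PGE2 and 24.9 and 23.3 CPM with vehicle. The AA and vehicle libraries overlapped there, PGE2 lay just above both, and no comparison passed. The first peak beyond the Krt18 set, nearest to Eif4b, was also higher, by 0.86 on the log2 scale with AA (adjusted p = 1.82e-04) and 0.86 with PGE2 (adjusted p = 2.64e-04). Counts of AA against PGE2 were 0 of 12 Krt18 peaks by edgeR and 0 by DESeq2, and 1 had an unadjusted p under 0.05. Among all peaks, edgeR called 9.95%.

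Krt19, a type I keratin of both crypt and villus cells, was called higher for AA against PGE2 and lower for PGE2 against vehicle. Its 11 peaks summed to 471 and 455 CPM with AA, 405 and 401 CPM with PGE2 and 443 and 446 CPM with vehicle. The AA libraries were the highest, the PGE2 libraries the lowest, and no group overlapped another. The log2 change of the sum was 0.20 for AA against PGE2 (SE 0.03, adjusted p = 1.47e-04) and -0.14 for PGE2 against vehicle (SE 0.03, adjusted p = 5.97e-04). With AA it was 0.06 against vehicle (SE 0.03, adjusted p = 0.0964). Of the 11 peaks, 10 had positive values for AA against PGE2, of which 2 passed the threshold. Among all peaks, 5.06% were called higher in that comparison.

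The gene-end peak of Krt19 (chr11:100144936-100146507), its highest, had 83.7 and 82.9 CPM with AA, 70.4 and 74.0 CPM with PGE2 and 76.3 and 80.6 CPM with vehicle. Again the AA libraries were on top and the PGE2 libraries at the bottom. AA against PGE2 its log2 change was 0.21 (SE 0.06, adjusted p = 0.0115), with an adjusted p of 0.0846 without AA replicate 1, 0.0638 without AA replicate 2, 0.0565 without PGE2 replicate 1 and 0.280 under DESeq2. Against vehicle it passed with neither AA (0.09, SE 0.06, adjusted p = 0.247) nor PGE2 (-0.12, SE 0.06, adjusted p = 0.111). Scaled apart from other peaks, it was lower with PGE2 (-0.30, adjusted p = 2.96e-05), as with library totals (-0.17, adjusted p = 0.0186), and AA against PGE2 was 0.32 (adjusted p = 4.19e-05).

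Farther from Krt19, peaks moved in both directions. The peak at 13782 bp (chr11:100159472-100159944) had 33.2 and 32.6 CPM with AA, 30.6 and 30.7 CPM with PGE2 and 26.6 and 25.5 CPM with vehicle. All treated libraries were above vehicle, by 0.34 on the log2 scale with AA (SE 0.08, adjusted p = 0.00119; 0.0827 under DESeq2) and 0.23 with PGE2 (SE 0.08, adjusted p = 0.0306). The PGE2 call was lost without any 1 of the PGE2 or vehicle libraries, at adjusted p = 0.0619 and 0.0762 without PGE2 replicates 1 and 2 and 0.0896 and 0.203 without vehicle replicates 1 and 2. It was also lost with library totals (0.0826) and under DESeq2 (0.331). The peak at 15550.5 bp (chr11:100161198-100161755) had 30.4 and 29.0 CPM with AA, 25.9 and 28.3 CPM with PGE2 and 34.5 and 31.1 CPM with vehicle. PGE2 was lowest and vehicle highest. The peak was lower with PGE2 by a log2 change of -0.27 (SE 0.08, adjusted p = 0.0123), a call lost without PGE2 replicate 1 (adjusted p = 0.0970) or vehicle replicate 1 (0.202) and under DESeq2 (0.226).

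Krt20, the keratin of differentiated villus cells, was higher with AA. Its 7 peaks summed to 125 and 118 CPM with AA, 105 and 97.3 CPM with PGE2 and 99.2 and 105 CPM with vehicle. The AA libraries stood above all others, while PGE2 and vehicle overlapped. The log2 change was 0.25 with AA (SE 0.05, adjusted p = 0.00120; 0.22 and not called, at 0.0596, when peaks were assigned within 10 kb) and -0.02 with PGE2 (SE 0.05, adjusted p = 0.800). AA against PGE2 it was 0.27 (SE 0.05, adjusted p = 0.00204; 0.0760 without AA replicate 1).

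The Krt20 peak with the smallest p in each comparison was its highest, 3390 bp before the start site (chr11:99441085-99442001). It held 34.9 and 30.1 CPM with AA, 27.2 and 25.4 CPM with PGE2 and 19.6 and 23.9 CPM with vehicle. The order AA, PGE2, vehicle held with no overlap. The log2 change with AA was 0.58 (SE 0.09, adjusted p = 4.71e-06). With PGE2 it was 0.28 (SE 0.10, adjusted p = 0.0315), lost without PGE2 replicate 1 (adjusted p = 0.118) or vehicle replicate 1 (0.13, adjusted p = 0.482), with library totals (0.0671) and under DESeq2 (0.306); without vehicle replicate 2 it was 0.42 (adjusted p = 0.0144). The log2 change for AA against PGE2 was 0.31 (SE 0.09, adjusted p = 0.0234), lost without AA replicate 1 (0.20, adjusted p = 0.365) or PGE2 replicate 2 (0.0738) and under DESeq2 (0.293). The other Krt20 peak called with AA, 16470.5 bp before the start site, had 28.3 and 29.8 CPM with AA, 24.3 and 24.2 CPM with PGE2 and 21.2 and 20.6 CPM with vehicle, a log2 change with AA of 0.47 (SE 0.09, adjusted p = 4.01e-05). A small Krt20 peak 5234 bp before the start site was lower with PGE2, at 2.82 and 2.08 CPM beside 3.75 and 3.74 CPM with vehicle. Its log2 change was -0.61 (SE 0.23, adjusted p = 0.0462), a call that held under 6 of 14 alternatives. With AA it was not called (-0.24, adjusted p = 0.432). No peak overlapped the 250 bases before the start site of Krt20, printed above, and none had its centre within 1 kb of either end.

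Krt7, the type II keratin of ducts, had the lowest level per kb and was called with PGE2 at 2 of 6 peaks, both higher, and with AA at 0 by edgeR (2 at an unadjusted p under 0.05) and 0 by DESeq2. By edgeR, 14.3% of all peaks were called higher with PGE2, and 30.5% were called with AA. The sum over the Krt7 peaks was 79.9 and 75.6 CPM with AA, 83.7 and 79.9 CPM with PGE2 and 76.8 and 72.7 CPM with vehicle. Both PGE2 libraries lay above both vehicle libraries, while AA overlapped both other groups. The log2 change of the sum was 0.13 with PGE2 (SE 0.06, adjusted p = 0.0787) and passed in no comparison; without PGE2 replicate 2 it was 0.16 (adjusted p = 0.0377).

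The start-site peak of Krt7 (chr15:101411834-101412982), which covers the printed sequence with its 4 GC boxes, had 24.9 and 25.6 CPM with AA, 27.7 and 27.5 CPM with PGE2 and 22.6 and 21.9 CPM with vehicle. PGE2 was highest and vehicle lowest, with no overlap. With PGE2 the log2 change was 0.31 (SE 0.09, adjusted p = 0.00643), and with AA 0.18 (SE 0.09, adjusted p = 0.113). The PGE2 call was lost without vehicle replicate 2 (adjusted p = 0.0792) and under DESeq2 (0.178), and when gene-end and other peaks were scaled apart the change was 0.14 (adjusted p = 0.268). A small peak inside the gene, 1265.5 bp from its far end (chr15:101426270-101426811), had 4.15 and 3.92 CPM with AA, 5.95 and 4.78 CPM with PGE2 and 2.91 and 2.82 CPM with vehicle. All treated libraries were above vehicle, by 0.90 on the log2 scale with PGE2 (SE 0.20, adjusted p = 5.87e-04; 0.0545 under DESeq2) and by 0.49 with AA (SE 0.21), which did not pass (adjusted p = 0.0738). AA against PGE2, Krt7 had 0 calls by edgeR and by DESeq2, with 1 peak at an unadjusted p under 0.05. In that comparison edgeR called 9.95% of all peaks.

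Krt23, a type I keratin, had 4 of 11 peaks higher with AA and 4 of 11 higher with PGE2, with 0 lower in either by edgeR or DESeq2 and 0 at an unadjusted p under 0.05 in that direction. Over all peaks, 16.7% were higher and 13.8% lower with AA, and 14.3% higher and 10.6% lower with PGE2. The Krt23 peaks summed to 236 and 235 CPM with AA, 210 and 220 CPM with PGE2 and 214 and 211 CPM with vehicle. AA stood above the rest, while PGE2 overlapped vehicle. The log2 change was 0.15 with AA (SE 0.03, adjusted p = 0.00239; 0.11 and not called, at 0.0547, when peaks were assigned within 10 kb) and 0.02 with PGE2 (SE 0.03, adjusted p = 0.737). Between AA and PGE2 it was 0.13 (SE 0.03, adjusted p = 0.0112), lost without AA replicate 1 (adjusted p = 0.108) or AA replicate 2 (0.0733) and under DESeq2 (0.103).

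Past the far end of Krt23, at 5757.5 bp (chr11:99472036-99472395), lay a small peak with 8.09 and 8.97 CPM with AA, 5.72 and 5.32 CPM with PGE2 and 2.68 and 3.51 CPM with vehicle. AA was highest, vehicle lowest and no group overlapped another. The log2 change was 1.46 with AA (SE 0.18, adjusted p = 9.95e-09) and 0.83 with PGE2 (SE 0.19, adjusted p = 0.00104; 0.0525 without vehicle replicate 1). Between AA and PGE2 it was 0.62 (SE 0.15, adjusted p = 0.00608; 0.0833 without AA replicate 2, and no adjusted p under DESeq2), the largest such change among the 68 in the positive direction. By contrast the start-site peak of Krt23 (chr11:99492907-99493820), its highest, had 42.4 and 40.3 CPM with AA, 39.6 and 37.9 CPM with PGE2 and 39.2 and 38.3 CPM with vehicle. Both AA libraries lay above vehicle there while PGE2 overlapped it, and no comparison passed (log2 change with AA 0.10, SE 0.07, adjusted p = 0.327). Scaled apart from other peaks, it was higher for AA against PGE2 (0.21, adjusted p = 0.0454).

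Krt80, a type II keratin, had the most peaks (14) and moved both ways: 3 were higher and 3 lower with AA, and 4 were higher and 2 lower with PGE2. The shares of all peaks were 16.7% higher and 13.8% lower with AA, and 14.3% higher and 10.6% lower with PGE2. The Krt80 sum was 247 and 235 CPM with AA, 233 and 223 CPM with PGE2 and 226 and 235 CPM with vehicle. Both treatments overlapped vehicle, and AA lay above PGE2. The sum passed in no comparison (log2 change with AA 0.06, SE 0.04, adjusted p = 0.179; with PGE2 -0.02, SE 0.04, adjusted p = 0.725). When peaks were assigned within 10 kb, it was called lower with PGE2 (-0.16, adjusted p = 0.0328) and was -0.15 with AA (adjusted p = 0.0620). For AA against PGE2 it was 0.08 (adjusted p = 0.117; 0.0240 without PGE2 replicate 1).

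The peak with the largest change of all 68 lay 11483.5 bp outside the lower-numbered end of Krt80 (chr15:101336449-101337214). It held 25.7 and 24.6 CPM with AA, 20.1 and 21.1 CPM with PGE2 and 8.35 and 8.93 CPM with vehicle. Every treated library held more than every vehicle library, by 2.91-fold with AA (log2 1.54, SE 0.11, adjusted p = 1.11e-14) and 2.38-fold with PGE2 (log2 1.25, SE 0.11, adjusted p = 2.47e-11). AA lay above PGE2 by 0.29 on the log2 scale (SE 0.09, adjusted p = 0.0405). That last call was lost without AA replicate 1 (adjusted p = 0.245), AA replicate 2 (0.116), PGE2 replicate 1 (0.126) or vehicle replicate 2 (0.0586), with gene-end and other peaks scaled apart (0.0531) and under DESeq2 (0.374).

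**Figure D3:**
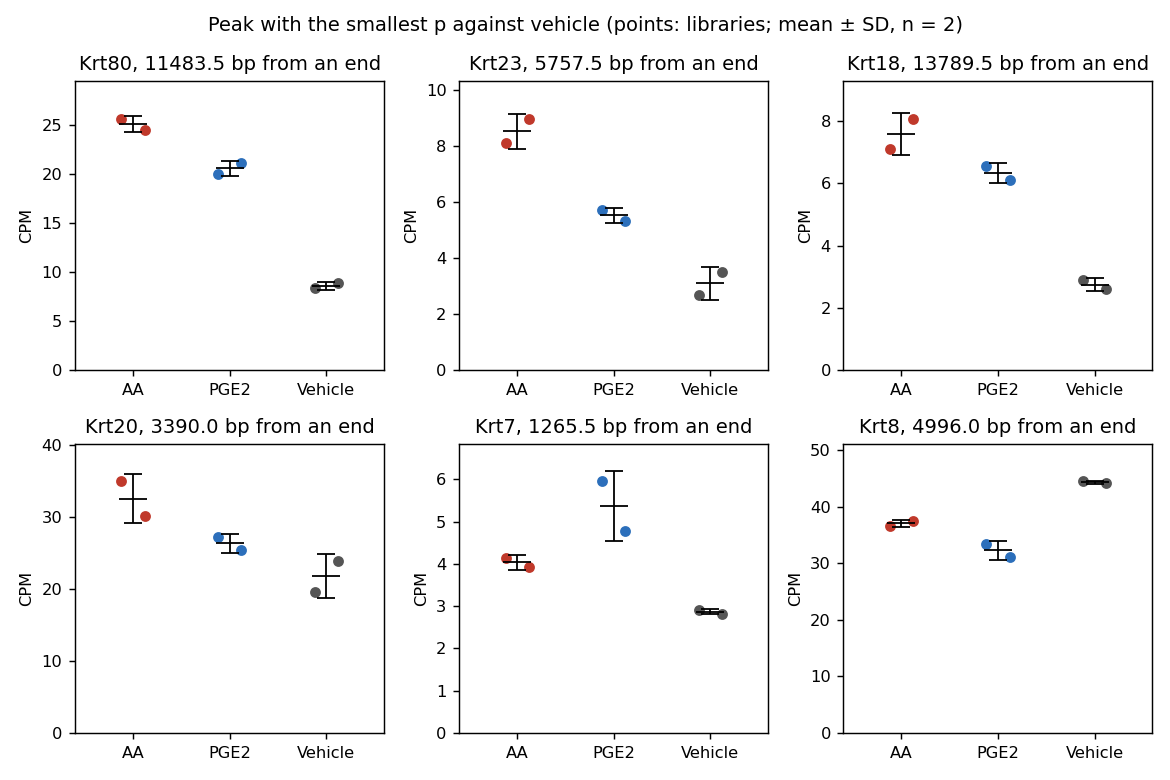
CPM of the peak with the smallest p against vehicle at 6 keratin genes, with AA, PGE2 and vehicle; points are libraries, bars and whiskers the mean ± SD (n = 2), and each axis starts at 0. At the Krt80 peak the AA libraries are at 25.7 and 24.6 CPM and vehicle at 8.35 and 8.93 CPM, while at the Krt8 peak vehicle is highest.

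On the other side of Krt80, at 12870.5 bp (chr15:101382732-101383333), a peak had 7.25 and 7.34 CPM with AA, 10.5 and 10.6 CPM with PGE2 and 10.8 and 13.6 CPM with vehicle. AA was lowest and PGE2 lay just under vehicle. Its log2 change was -0.74 with AA (SE 0.13, adjusted p = 2.83e-05) and -0.21 with PGE2 (SE 0.13, adjusted p = 0.238). AA against PGE2 it was -0.53 (SE 0.14, adjusted p = 0.00899; 0.0998 without AA replicate 1, 0.0592 without AA replicate 2 and 0.229 under DESeq2), the 1 keratin peak called lower in that comparison. On that same side, at 5934.5 bp, lay the largest fall of the 68 with either treatment. That peak had 4.93 and 3.83 CPM with AA, 5.42 and 4.55 CPM with PGE2 and 8.04 and 7.86 CPM with vehicle. Its log2 change was -0.85 with AA (SE 0.17, adjusted p = 8.39e-05) and -0.67 with PGE2 (SE 0.16, adjusted p = 0.00146). The gene-end peak of Krt80 (chr15:101369622-101370775) had 28.9 and 26.6 CPM with AA, 32.1 and 31.3 CPM with PGE2 and 24.4 and 26.8 CPM with vehicle. PGE2 stood above the other groups, which overlapped. The log2 change with PGE2 was 0.31 (SE 0.08, adjusted p = 0.00521; 0.132 without vehicle replicate 1 and 0.165 under DESeq2) and 0.13 (adjusted p = 0.264) when gene-end and other peaks were scaled apart. The highest peak of Krt80, at 16966.5 bp, had 39.9 and 39.8 CPM with AA, 33.3 and 35.3 CPM with PGE2 and 36.5 and 35.6 CPM with vehicle. AA was highest, and no comparison passed (adjusted p = 0.0527 for AA against PGE2; 0.0476 without PGE2 replicate 2, 0.0369 with DESeq2 size factors and 0.0317 with library totals).

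Taking the 6 gene-end peaks by themselves, with PGE2 those of Krt7 and Krt80 were higher and that of Krt8 was lower, while with AA 0 of 6 were called by edgeR or DESeq2 (median log2 change 0.09, range -0.16 to 0.18; 1 higher and 1 lower at an unadjusted p under 0.05 by edgeR, 0 by DESeq2). Beside these, edgeR called 24.9% of all peaks with PGE2 and 30.5% with AA. That share over gene-end peaks alone is not given here, and 6 peaks are too few to set the treatments apart. Gene-end peaks of the whole table took 34.3% and 35.8% of counts with PGE2, 32.3% and 32.8% with AA and 31.9% and 31.4% with vehicle. When gene-end peaks were scaled by themselves, the calls with PGE2 at Krt7 and Krt80 were lost, while Krt8 (-0.41), Krt18 (-0.36) and Krt19 (-0.30) were called lower. The part of the share in these values was otherwise not tested.

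**Figure D4:**
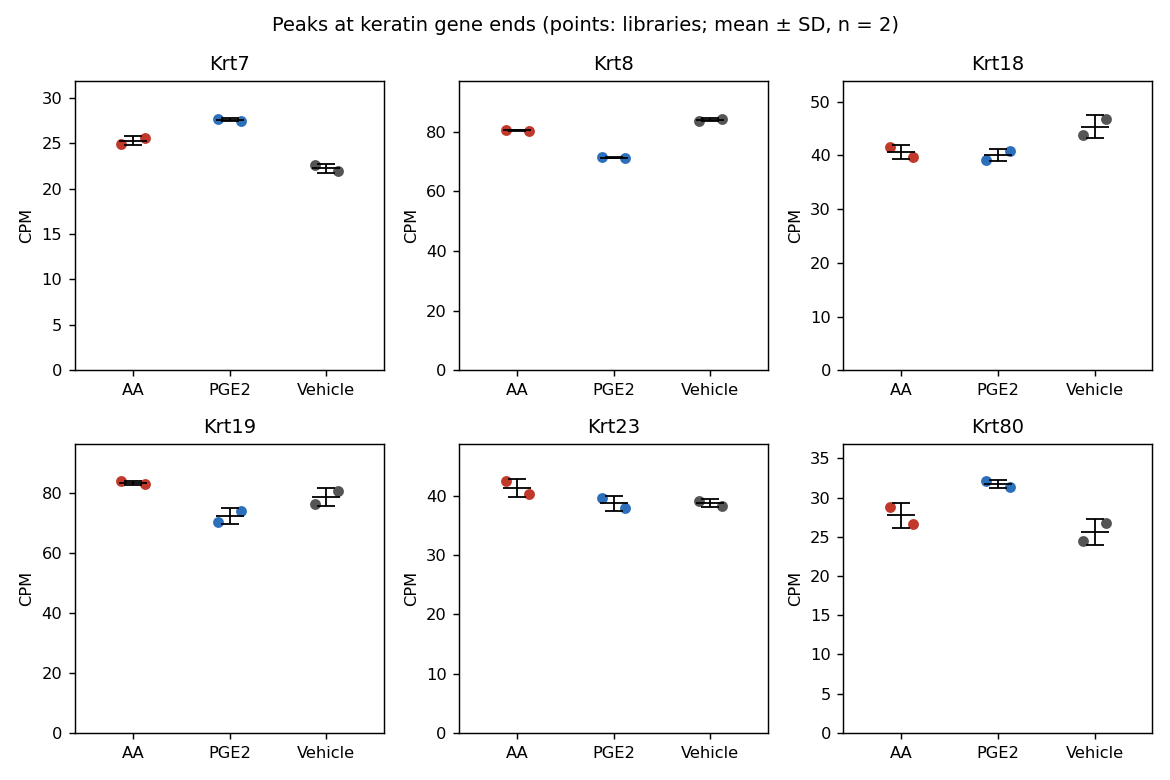
CPM of the 6 peaks within 1 kb of a keratin gene end, with AA, PGE2 and vehicle; points are libraries, bars and whiskers the mean ± SD (n = 2), and each axis starts at 0. PGE2 is highest at Krt7 (27.7 and 27.5 CPM) and Krt80, and lowest at Krt8 (71.4 and 71.1 CPM).

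The genes whose summed peaks followed each keratin most closely over the 6 libraries were ranked by the root mean square difference of their log2 CPM, each gene centred on its own mean. Candidates were genes with at least 3 peaks and a mean summed CPM at least 0.5 times that of the keratin, with the 7 keratins left out, so they numbered between 494 for Krt18 and 6710 for Krt7. For Krt8 these were Os9 (0.018, of 1092 candidates with a median of 0.122) and Spink4 (0.025), a gene of goblet cells. For Krt18 they were Mob2 (0.0073) and Map3k13 (0.015), and for Krt19 Coro2a (0.018) and Rhpn2 (0.019). Krt20 was followed by Tes (0.024) and Gm13547 (0.024), Krt23 by Arfgef1 (0.018) and Top1 (0.021). Krt7 was followed by Fbxl14 (0.018) and Stag2 (0.021), and Krt80 by Pllp (0.016) and Inava (0.017).

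Of the 46 other keratin genes, 35 had a peak, and of their 82 peaks 15 were higher and 8 lower with AA, 14 higher and 7 lower with PGE2, and 6 higher and 2 lower for AA against PGE2. The shares called, 28.0%, 25.6% and 9.76%, were near those of all peaks. Krt13, a keratin of stratified mucosa, had a log2 change of its sum of 1.00 with AA (SE 0.09) and 0.62 with PGE2 (SE 0.09), and Krt79 had 0.79 with AA (SE 0.10) and 0.46 with PGE2 (SE 0.11), all called. Krt12 rose with AA (0.48, SE 0.11). Krt15, a basal keratin that neighbours Krt19, was lower with PGE2 (-0.46, SE 0.09) and with AA (-0.27, SE 0.09). Krt39 was lower with AA (-0.35, SE 0.09).

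Desmosomes anchor keratin filaments at cell junctions. Of 86 peaks at 15 desmosome genes, 27 were higher and 6 lower with AA, 20 higher and 3 lower with PGE2, and 6 higher and 2 lower for AA against PGE2, with medians of 0.15, 0.12 and 0.06 on the log2 scale. The shares called were 38.4%, 26.7% and 9.30%, beside 30.5%, 24.9% and 9.95% of all peaks, so those with PGE2 and for AA against PGE2 were near the background. The sum of Dsc3, a desmosomal cadherin, changed by 1.19 with AA (SE 0.12) and 0.53 with PGE2 (SE 0.13), and that of Pkp2, a plaque protein, by 0.44 (SE 0.07) and 0.45 (SE 0.07), all called. Pkp3 was higher with AA (0.29, SE 0.06). Of 72 peaks of 10 plakin and hemidesmosome genes, which link filaments to plaques, 14 were higher and 8 lower with AA, 15 higher and 5 lower with PGE2, and 5 higher and 6 lower for AA against PGE2. These were 30.6%, 27.8% and 15.3% of them, the first close to the 30.5% of all peaks. Periplakin, Ppl, was higher with AA (0.30, SE 0.04) and PGE2 (0.17, SE 0.04), Itgb4 higher with PGE2 (0.29, SE 0.05) and epiplakin, Eppk1, lower with AA (-0.96, SE 0.19) and PGE2 (-0.63, SE 0.18). Of 28 peaks of 5 keratin filament organisers, 9 were higher and 0 lower with AA (0 lower by DESeq2, 1 at an unadjusted p under 0.05 by edgeR), 3 higher and 3 lower with PGE2, and 4 higher and 1 lower for AA against PGE2. The shares, 32.1%, 21.4% and 17.9%, were near those of all peaks except for AA against PGE2. Csnk1a1, a kinase gene chosen after its values were seen, held 17 of the 28 peaks and 6 of the 9 called higher with AA, while Fam83h and Pof1b had 0. Trichoplein, Tchp, which binds keratin filaments, was higher with AA (0.26, SE 0.07). Of 65 peaks of 13 other intermediate filament genes, 12 were higher and 2 lower with AA, 10 higher and 2 lower with PGE2, and 11 higher and 2 lower for AA against PGE2. These were 21.5% and 18.5%, under the shares of all peaks, and 20.0%, above the 9.95% of all peaks. Of the 12 higher with AA, Ina held 5 and Lmna, chosen after its values were seen, 5. The neuronal filament gene Ina was higher with AA (0.37, SE 0.04) and synemin, Synm, higher with PGE2 (0.62, SE 0.12).

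Since keratins are shared by several epithelia, markers of other cell types were read beside them. The 4 mesothelial markers all had peaks, and their sum was 50.7 to 52.6 CPM with AA, 46.1 to 49.4 CPM with PGE2 and 36.5 to 37.6 CPM with vehicle. Of their 10 peaks, 2 were higher and 1 lower with AA and 3 higher and 1 lower with PGE2. The sum moved with Msln (log2 change 2.14 with AA and 1.75 with PGE2), while Upk3b was lower (-0.32 and -0.41). Basal squamous markers (Trp63, Krt5, Krt14) summed to 38.4 to 39.6 CPM with AA, 37.2 to 40.8 CPM with PGE2 and 40.7 to 41.4 CPM with vehicle, with 1 of 11 peaks higher and 2 lower with AA and 1 higher and 1 lower with PGE2. Of 8 stromal markers 5 had a peak, and these summed to 139 to 143 CPM with AA, 138 to 139 CPM with PGE2 and 147.8 to 148.2 CPM with vehicle (of 23 peaks, 1 higher and 3 lower with AA, 1 and 1 with PGE2). Of 7 immune markers 4 had a peak, at 98.7 to 102 CPM with AA, 98.7 to 107 CPM with PGE2 and 96.2 to 96.9 CPM with vehicle (of 12 peaks, 3 higher and 3 lower with AA, 1 higher with PGE2). The 5 endothelial markers had 225 to 228 CPM with AA, 215 to 221 CPM with PGE2 and 216 to 223 CPM with vehicle (of 31 peaks, 4 higher and 6 lower with AA, 3 and 4 with PGE2). Of 56 peaks of the epithelial markers, 9 were higher and 6 lower with AA and 4 higher and 2 lower with PGE2. Of all peaks, 30.5% were called with AA and 24.9% with PGE2. In that order, the shares were 30.0% and 40.0% for mesothelial, 27.3% and 18.2% for basal squamous and 17.4% and 8.70% for stromal markers. They were 50.0% and 8.33% for immune, 32.3% and 22.6% for endothelial and 26.8% and 10.7% for epithelial markers. The part of any of these cell types in the keratin values was not tested.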

How the data were processed

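The deposited table held raw counts for all 6 libraries over 1 set of consensus peaks. These counts of 5′ ends of read pairs came, per the file headers, from featureCounts 1.6.3. The submitters' processing notes name build mm10 and, with no settings, MACS2, SAMtools, Picard, BWA and Trim Galore. A shift of reads for the transposase is not stated, and regions outside the consensus peaks have no value. From the counts, edgeR 4.0.16 (robust quasi-likelihood F-test, TMM factors 0.969 to 1.02, filterByExpr, 1 fit of all 6 libraries, 3 residual degrees of freedom) tested 89347 peaks and, on summed counts, 16788 genes, with Benjamini-Hochberg adjustment over all of them and a threshold of 0.05. Each standard error was taken from the log2 change and its F statistic. Across peaks, the biological coefficient of variation had a median of 4.49%. The spread of each peak was estimated mostly from that of other peaks (median prior degrees of freedom 42.3, beside 3 residual). Gene positions came from a RefSeq table of GRCm38.p6, the assembly of mm10; a peak may regulate another gene than its nearest. Peaks named were those within 1 kb of a gene's end, the highest, and the one with the smallest p in each comparison. Chosen after their values were seen were the Krt20 peaks at 16470.5 and 5234 bp and the Krt80 peak at 5934.5 bp. So were the neighbouring peaks outside the set. From the lists of keratin partners, genes named were drawn from those with at least 50% of their tested peaks called in 1 direction. Members, lists and tests were chosen with earlier results of these data known. The procedure was tested on simulated data. Alternatives were DESeq2 1.42.0, other scalings, filters and fits, a 10 kb assignment and leaving out each library. Precision is set by 2 libraries per group.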

Additional observations from a re-analysis of the deposited data

How the results depend on the processing

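Called keratin peaks numbered 19 with AA, 24 with PGE2 and 8 for AA against PGE2, and called genes 3, 3 and 4. With the DESeq2 test the peaks were 8, 4 and 0 (for AA against PGE2, 4 at an unadjusted p under 0.05 by DESeq2 and 20 by edgeR), and with assignment within 10 kb 10, 15 and 5 of 45. DESeq2 also called fewer of all peaks, and with PGE2 the share of keratin peaks it called was below that of all peaks. Leaving out 1 library gave 12 to 20, 10 to 23 and 1 to 8 peaks, and 3 to 3, 3 to 4 and 2 to 5 genes. A replicate block gave 19, 24 and 8 peaks and 3, 3 and 4 genes. Deviations of same-numbered libraries correlated at 0.0043 (AA and vehicle), -0.025 (PGE2 and vehicle) and 0.042 (AA and PGE2). Between the libraries of a group, chi-square per degree of freedom was 1.12 with AA, 1.55 with PGE2 and 1.10 with vehicle, where 1 is counting noise alone. With so little spread beyond counting, these correlations cannot tell whether same-numbered libraries were paired. Of the peak calls, 8 of 19 with AA, 3 of 24 with PGE2 and 0 of 8 for AA against PGE2 passed under all 14 alternatives. Of 1050 other values, 960 kept direction and call, 55 lost the call, 20 gained it and 15, all uncalled, changed sign. These log2 changes were, with assignment within 10 kb, -0.035 (Krt23 sum, PGE2) and -0.15 (Krt80 sum, AA), and with no filter 1.31e-04 (Krt23 start-site peak, PGE2). With 1 library left out they spanned -0.032 to 0.031 (that Krt23 peak), -0.00348 to 0.057 (Krt18 start-site peak, AA against PGE2), -0.056 to 0.021 (Krt18 peak at 11454 bp, AA), -0.22 to 0.015 (Krt18 peak at 12983 bp, AA), -0.073 to 0.033 (Krt20 sum, PGE2), -0.017 to 0.048 (Krt23 sum, PGE2) and -0.049 to 0.013 (Krt80 sum, PGE2). The sums of Krt20 and Krt23 with AA were not called within 10 kb (0.22 and 0.11), where fewer peaks entered; elsewhere the cause was not tested. Where 1 group kept a single library, that library was assumed to vary like the others.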
